A study of Homo sapiens with 6 samples.

Results

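The 38 genes described here encode β-catenin, the complex that degrades it, the enzymes that act on that complex, the TCF/LEF factors that carry β-catenin to DNA, their co-activators and co-repressors, and a few receptor-turnover and feedback genes. They were chosen by name, with earlier results of these data known, and they were named in 39 of the 54644 gene loci of the deposited table. TNKS had 2 loci at the same position, of which the second had 0 fragments in all 6 libraries and was not used. Poly(A) RNA of SKBR3 cells, an established HER2-amplified human breast adenocarcinoma line, was sequenced to see how the transcriptome changed with raised CTTN, the gene of the actin-binding protein cortactin. The series' design text and the study's methods describe cultured cells while the labels' extraction note speaks of tumors, and the sources do not settle which the RNA came from. Control cells (Con, n = 3 libraries) were stably infected with lentivirus carrying the empty pLVX vector, and CTTN cells (n = 3 libraries) with pLVX-CTTN. Both kinds of cells had passed lentiviral infection and puromycin selection, and no drug treatment separated them. The sources call the 3 libraries of a group biological replicates but do not say whether they came from separate infections, so the p-values measure the spread between these libraries.

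The libraries held 34887071 to 41279839 fragments. CTTN, as a check of the labels, stood at 793, 1011 and 520 CPM (counts scaled to library size) in CTTN libraries 1, 2 and 3, against 299, 307 and 306 in the controls, a log2 fold change of 1.35 ± 0.22 (SE, edgeR adjusted p = 0.0249). It kept its direction but missed the threshold without CTTN library 1 (1.33, edgeR adjusted p = 0.123) and without any 1 control library (1.33 to 1.36, edgeR adjusted p = 0.138 to 0.154). Calls over all loci also fell far below their full number without Con library b, so a miss there is not particular to CTTN. HER2 itself (ERBB2) was listed at 1644 to 1790 FPKM (fragments per kilobase of transcript, scaled to library size), keratins KRT8, KRT18 and KRT19 at 751 to 3394 FPKM, and the hormone receptors ESR1 and PGR at no more than 0.211 FPKM. Of the markers of fibroblasts, leukocytes, endothelium and basal epithelium, COL1A2, COL3A1, PDGFRB, PTPRC, CD3E, PECAM1, VWF and KRT14 stayed at or under 0.199 FPKM, KRT5 lay at 0.252 to 0.562, COL1A1 lay at 2.83 to 4.26, TP63 at 1.72 to 2.79, and CDH5 at 1.43 to 2.02 in CTTN cells against 3.96 to 4.45 in controls. CTTN libraries 1 and 3 stood apart from the others. Genes with transcripts over 8000 bases had a median log2 ratio to the control mean of -0.58 in CTTN library 1 and -0.97 in CTTN library 3 but of -0.02 in CTTN library 2, and genes of up to 1000 bases had medians of 0.32, 0.75 and 0.02 in CTTN libraries 1, 3 and 2. The part of this length pattern in the results below was not tested, and members are therefore also given from CTTN library 2 alone and from a fit that removes a smooth trend on transcript length.

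β-catenin is held low by a complex of APC, AXIN and the kinases GSK3 and CK1, which phosphorylates it so that the ubiquitin ligase adaptor encoded by BTRC can direct its destruction. Wnt ligands act through Frizzled and LRP receptors and Dishevelled to stall that complex, after which β-catenin enters the nucleus, binds TCF/LEF factors and exchanges their TLE co-repressors for BCL9, PYGO2, CREBBP and EP300. Several members are also common transcriptional targets of the pathway, such as AXIN2, LEF1, LGR5, NKD1, RNF43, SP5 and ZNRF3, and some of these act back on it as inhibitors. The pathway is regulated largely by protein turnover, phosphorylation and localisation, which RNA levels do not measure.

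Promoter sequences of 29 members were found in the RefSeq promoter table (build GRCh38.p14, 250 bases before to 50 after a start, 47 starts in all). The core letters of a TCF/LEF site, CTTTGA, were searched on both strands, where the reverse strand reads TCAAAG. They occurred in 4 of the 47 windows, and in 12.9% of all 35116 windows of the table. SP5, a transcription factor and target gene of the pathway, had 3 matches in 1 window, starting 147, 109 and 83 bases before the start, and 0.0997% of all windows had 3 or more. The other 3 windows, each with 1 match, belonged to TLE4 (both starts) and CSNK1A1. Neither of the RNF43 windows had a match. The sequences of SP5, the member with the most matches, and of RNF43, the member that differed between the groups in its own transcripts, are shown with matches in capitals, and the RNF43 stretch ends where the deposited RNF43 locus begins. A match is a run of letters and was not tested for binding.
SP5 chr2:170715087-170715336 plus strand: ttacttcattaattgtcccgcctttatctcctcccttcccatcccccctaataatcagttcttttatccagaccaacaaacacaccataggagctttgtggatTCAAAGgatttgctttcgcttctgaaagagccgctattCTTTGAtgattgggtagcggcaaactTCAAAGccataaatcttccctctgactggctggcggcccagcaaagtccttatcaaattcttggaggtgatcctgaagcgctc
RNF43 chr17:58417596-58417784 minus strand: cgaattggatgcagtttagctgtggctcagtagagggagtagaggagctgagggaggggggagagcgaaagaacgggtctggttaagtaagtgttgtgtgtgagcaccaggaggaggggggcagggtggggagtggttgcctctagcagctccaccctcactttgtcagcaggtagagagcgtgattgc

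SKBR3 cells expressed most of the core pathway. Per transcript length, 20 of the 38 members exceeded 10 FPKM in control cells, 11 lay between 1 and 10 FPKM, and 7 were under 1 FPKM. MYC was highest at 138 ± 3.98 FPKM (SD, n = 3 control libraries), followed by the CK1 kinase genes CSNK1A1 (112 ± 4.98 FPKM), CSNK1E (84.8 ± 2.41 FPKM) and CSNK1D (74.9 ± 1.48 FPKM) and by CTNNB1, which encodes β-catenin (61.1 ± 1.51 FPKM). These first 5 members were separated by more than their SDs. BCL9L (48.5 ± 8.14 FPKM) and DVL1 (44.7 ± 0.701 FPKM) were not, and neither were GSK3A (34.4 ± 1.5 FPKM), CTBP2 (34.3 ± 1.04 FPKM), DVL3 (32.9 ± 2.75 FPKM) and LGR4 (32.0 ± 0.943 FPKM). At the low end, RNF43 stood at 0.677 ± 0.0506 FPKM, TCF7 at 0.435 ± 0.061 FPKM and AXIN2 at 0.0875 ± 0.0369 FPKM. LEF1 had 2.06 scaled fragments (the deposited counts, scaled between libraries) in 1 control library and 0 in the other 5 libraries, and LGR5, NKD2 and SP5 had 0 in all 6 libraries. A count of 0 allows up to 3 fragments per library, or 0.0727 to 0.086 CPM at these depths, which covers counting error only.

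**Figure D1:**
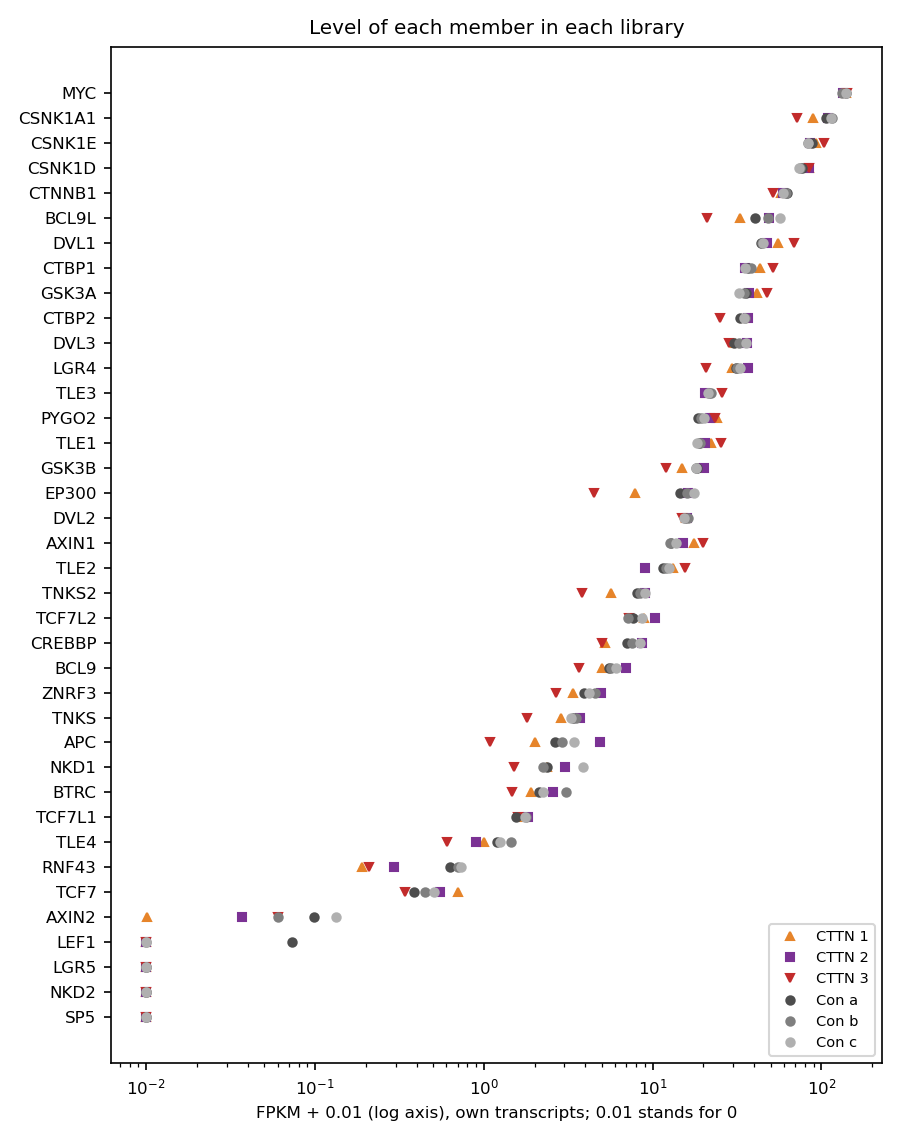
Level of each of the 38 members in each library, as FPKM + 0.01 summed over the gene's own transcripts (log axis), ordered by the control mean; circles are the 3 Con libraries and triangles and squares the 3 CTTN libraries. MYC, CSNK1A1, CSNK1E and CSNK1D were highest in Con, and LGR5, NKD2 and SP5 were at 0 in all 6 libraries.

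None of the members passed the test at the level of the deposited gene loci. Of 34 members with enough counts to be tested, edgeR's quasi-likelihood test called 0 at an adjusted p of 0.05, against 4.20% of all 14433 loci tested (606 loci, 2.29% higher and 1.91% lower in CTTN cells). DESeq2 and limma also called 0 members. At an unadjusted p of 0.05, edgeR gave 5 members (AXIN1, DVL1, TLE1 and the GSK3A and CSNK1A1 loci), against 30.2% of all loci, and the lowest adjusted p of a member was 0.133. The members' median log2 fold change was -0.11, and that of all loci was 0.01. In 6 members (AXIN1, the GSK3A locus, CSNK1D, CSNK1E, DVL1 and TLE1) every CTTN library was above every control library, and in the CSNK1A1 locus every CTTN library was below, where 19.3% of all loci were above and 19.4% below in this way. The 95% interval of the difference lay within 1.5-fold in either direction for 24 of the 34 members and within 2-fold for 28.

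**Figure D2:**
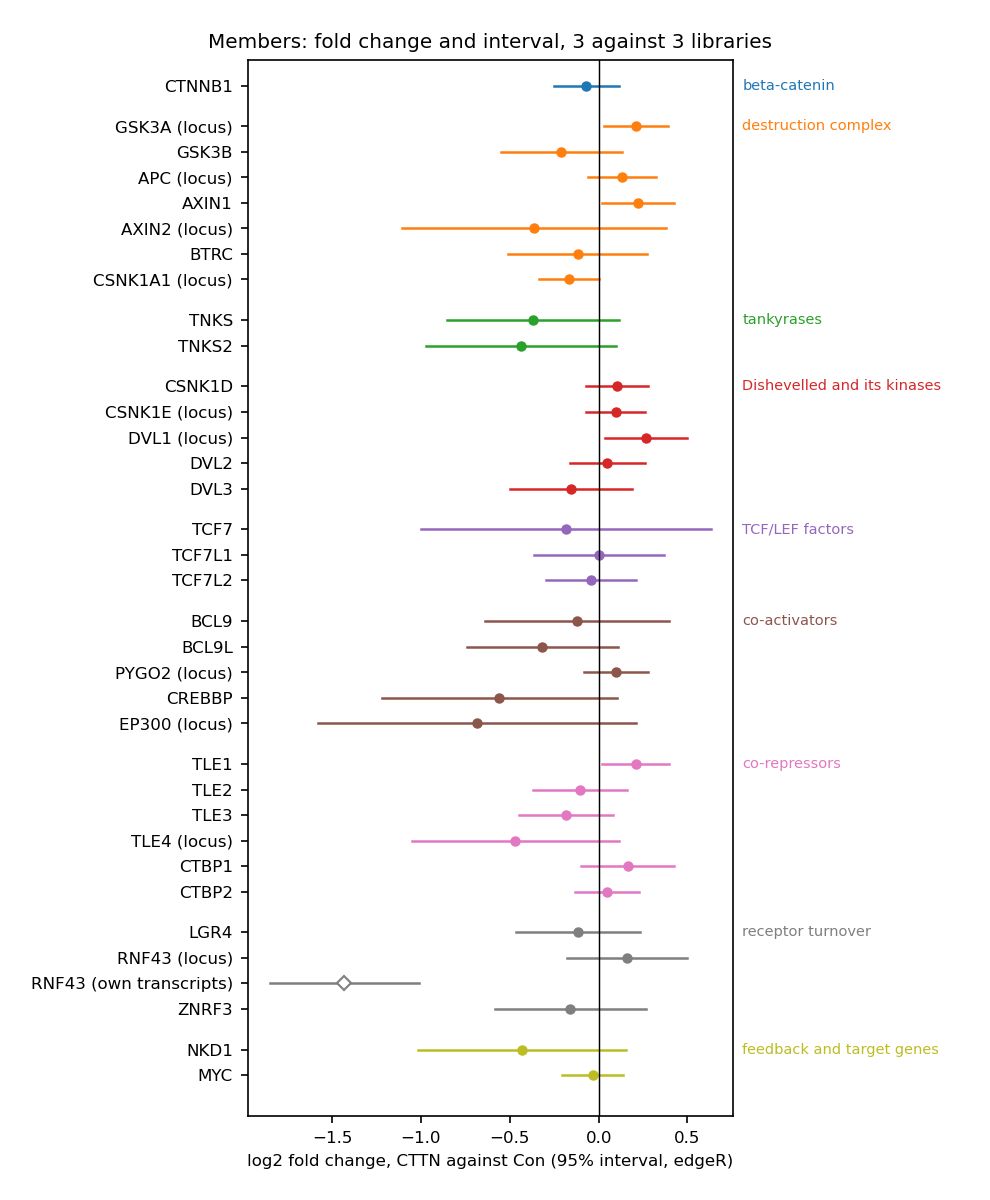
Fitted log2 fold change of CTTN against Con (x axis) with its 95% interval for the 34 members tested, grouped by role (y axis), from 3 against 3 libraries; "locus" marks a row that also holds another gene name, and the open diamond is RNF43 from its own transcripts. Intervals were narrow for CTNNB1, MYC and the CK1 kinases, and widest for EP300, TCF7 and AXIN2, and the RNF43 own-transcript interval (-1.85 to -1.01) lay apart from 0.

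The gene of β-catenin did not pass the test. CTNNB1 (chr3:41194740-41962430) was at 191, 187 and 172 CPM in CTTN libraries 1, 2 and 3 and at 195, 197 and 186 CPM in the controls. The groups overlapped, with CTTN library 3 lowest. The log2 fold change was -0.07 ± 0.08 (SE, 95% interval -0.25 to 0.12, edgeR adjusted p = 0.543).

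In the destruction complex, 0 of 7 members tested passed, with log2 fold changes from -0.37 to 0.22. GSK3B, a kinase that phosphorylates β-catenin, was at 80.8, 101 and 67.9 CPM in CTTN cells and at 93.6, 98.8 and 96.9 CPM in controls. CTTN library 2 was the highest of the 6 libraries, and CTTN libraries 1 and 3 were the lowest. The log2 fold change was -0.21 ± 0.14 (edgeR adjusted p = 0.323). It was -0.38 without CTTN library 2 (edgeR adjusted p = 0.0113) and 0.07 with CTTN library 2 alone (edgeR adjusted p = 0.536). AXIN1, the scaffold of the complex, was at 59.9, 61.0 and 56.7 CPM against 49.1, 48.6 and 54.7 CPM. All 3 CTTN libraries were above the controls, by 0.22 ± 0.09 on the log2 scale (edgeR adjusted p = 0.144), and the difference with CTTN library 2 alone was 0.26 (edgeR adjusted p = 0.0176). CSNK1A1, the CK1 kinase that primes β-catenin, shares its locus with AC021078.1, and 76.6% of the locus' control counts came from CSNK1A1 transcripts. The locus was at 360, 359 and 350 CPM against 395, 412 and 394 CPM, and its log2 fold change was -0.17 ± 0.07 (edgeR adjusted p = 0.165). CSNK1A1's own transcripts were at 296, 282 and 297 CPM against 302, 315 and 303 CPM. Both were lower in all 3 CTTN libraries, but the own-transcript log2 fold change was -0.07 ± 0.07 (edgeR adjusted p = 0.498), with an unadjusted edgeR p of 0.353.

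AXIN2, a feedback inhibitor widely used as a readout of the pathway, was close to the floor. Its deposited locus also holds CEP112, and 32.4% of the locus' control counts came from AXIN2 transcripts. Those transcripts had 0.0123, 4.36 and 4.43 scaled fragments in CTTN libraries 1, 2 and 3 and 4.87, 7.30 and 16.3 in the controls. Every CTTN library was below every control library in fragments, but in FPKM CTTN library 3 (0.0507) lay above the lowest control library (0.0501), and the counts were too low to enter the test. At the merged locus the log2 fold change was -0.37 ± 0.32 (edgeR adjusted p = 0.424). APC, the tumour suppressor scaffold, shares its locus with SRP19. APC's own transcripts had a log2 fold change of -0.34 (edgeR adjusted p = 0.371), and the whole locus one of 0.13 (edgeR adjusted p = 0.275).

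Tankyrases mark AXIN proteins for degradation and so act on the complex from the other side. TNKS2 was at 32.0, 46.4 and 23.3 CPM in CTTN libraries 1, 2 and 3 and at 44.0, 46.3 and 47.1 CPM in controls. CTTN libraries 1 and 3 were low and CTTN library 2 lay among the controls. The log2 fold changes were -0.43 ± 0.23 for TNKS2 and -0.37 ± 0.21 for TNKS (edgeR adjusted p = 0.222 and 0.243).

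Of Dishevelled and its kinases, 0 of 5 passed. DVL1, which relays the receptor signal, was at 131, 128 and 153 CPM in CTTN cells and at 112, 110 and 120 CPM in controls. All 3 CTTN libraries were above the controls, and the log2 fold change was 0.27 ± 0.10 (edgeR adjusted p = 0.133). DVL2 and DVL3 overlapped between the groups, with log2 fold changes of 0.05 and -0.15. The Dishevelled kinases CSNK1D and CSNK1E had 0.10 each.

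The TCF/LEF factors showed no difference beyond the spread. TCF7L2 was the most abundant of them at 7.81 ± 0.741 FPKM in controls, against 1.69 ± 0.125 FPKM for TCF7L1. Its CPM were 20.9, 24.9 and 20.0 in CTTN cells and 21.7, 23.0 and 23.1 in controls. The groups overlapped, with CTTN library 2 highest, and the log2 fold change was -0.04 ± 0.11 (95% interval -0.29 to 0.21, edgeR adjusted p = 0.789). TCF7L1, the family member best known as a repressor, was at 4.44, 4.90 and 3.53 CPM against 3.89, 4.37 and 4.60 CPM. The groups overlapped, and the log2 fold change was 0.00 ± 0.16 (95% interval -0.36 to 0.37, edgeR adjusted p = 0.995). TCF7 was at 0.873, 1.74 and 0.766 CPM against 0.987, 1.45 and 1.41 CPM. The log2 fold change of -0.19 ± 0.35 had an interval from -1.0 to 0.63 (edgeR adjusted p = 0.717). It was -0.65 without CTTN library 2 and 0.44 with CTTN library 2 alone. LEF1 was too low to test.

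At the deposited loci, the co-activators EP300 and CREBBP had the largest log2 fold changes of the members tested, and these rested on CTTN libraries 1 and 3. EP300, a histone acetyltransferase with a mean transcript length of 8724 bases, was at 78.3, 151 and 45.8 CPM in CTTN libraries 1, 2 and 3 and at 136, 145 and 162 CPM in controls. Its paralog CREBBP, of 7498 bases, was at 39.1, 66.0 and 28.3 CPM against 60.7, 63.7 and 72.0 CPM. In both genes CTTN library 2 lay among the controls and CTTN libraries 1 and 3 lay below all of them. The log2 fold changes were -0.68 ± 0.38 for EP300 and -0.56 ± 0.28 for CREBBP (edgeR adjusted p = 0.244 and 0.213). With CTTN library 2 alone they were 0.04 and 0.01. Of the BCL9 proteins, which bridge β-catenin to PYGO2, BCL9L differed by -0.32 ± 0.18 and BCL9 by -0.12 ± 0.22, and the PYGO2 locus by 0.10 ± 0.08. PYGO2 shares its locus with SHC1, and its own transcripts differed by 0.24 ± 0.08 (edgeR adjusted p = 0.114), with all 3 CTTN libraries above the controls.

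Among the co-repressors, 0 of 6 passed. TLE1, a Groucho-type repressor that occupies TCF when β-catenin is absent, was at 54.1, 54.5 and 56.6 CPM in CTTN cells and at 45.6, 50.5 and 46.9 CPM in controls. All 3 CTTN libraries were above the controls, by 0.21 ± 0.08 on the log2 scale (edgeR adjusted p = 0.143). Its paralogs TLE2, TLE3 and TLE4 had log2 fold changes of -0.11, -0.18 and -0.47. The repressors CTBP1 and CTBP2 had 0.17 and 0.05. All but TLE1 overlapped between the groups.

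In the receptor-turnover group the deposited loci gave no call, but RNF43 was covered by its neighbour. RNF43 is a membrane ubiquitin ligase that removes Frizzled receptors from the cell surface. Its locus (chr17:58301227-58417595) also holds SUPT4H1, a transcription elongation factor, and 12.9% of the control counts came from RNF43 transcripts. Summed over transcripts named RNF43 alone, a count added after the data had been seen, RNF43 had 42.8, 59.9 and 48.9 scaled fragments in CTTN libraries 1, 2 and 3 and 135, 125 and 150 in the controls.

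All 3 CTTN libraries were low, including CTTN library 2, and the groups did not overlap. Mean CPM was 1.38 ± 0.233 (SD, n = 3) in CTTN cells and 3.73 ± 0.333 (SD, n = 3) in controls. RNF43 fell by 1.43 ± 0.18 on the log2 scale (95% interval -1.85 to -1.01, edgeR adjusted p = 0.0139), which made CTTN cells 2.69-fold lower. It was the 1 member called of 33 tested in this way, 3.03%, where 3.04% of all 15571 genes were called, so its share was near the background. The whole locus had a log2 fold change of 0.16 ± 0.14 (edgeR adjusted p = 0.442), and SUPT4H1 one of 0.30 ± 0.15 (edgeR adjusted p = 0.228). Fewer cells with RNF43 RNA and less of it per cell cannot be told apart in bulk RNA.

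RNF43 transcripts averaged 5535 bases, so the value was also computed against the length pattern. RNF43 differed by -1.19 on the log2 scale with CTTN library 2 alone (edgeR adjusted p = 0.00328) and by -1.11 with the transcript-length offset (edgeR adjusted p = 0.00696). The difference kept its size but missed the threshold without CTTN library 1 (-1.33, edgeR adjusted p = 0.0967) and without 1 control library (-1.36 to -1.49, edgeR adjusted p = 0.0909 to 0.104). How many of all genes missed it in these settings is not given here. The division of reads between RNF43 and SUPT4H1 is the authors' estimate and is not independent of the transcript models.

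**Figure D3:**
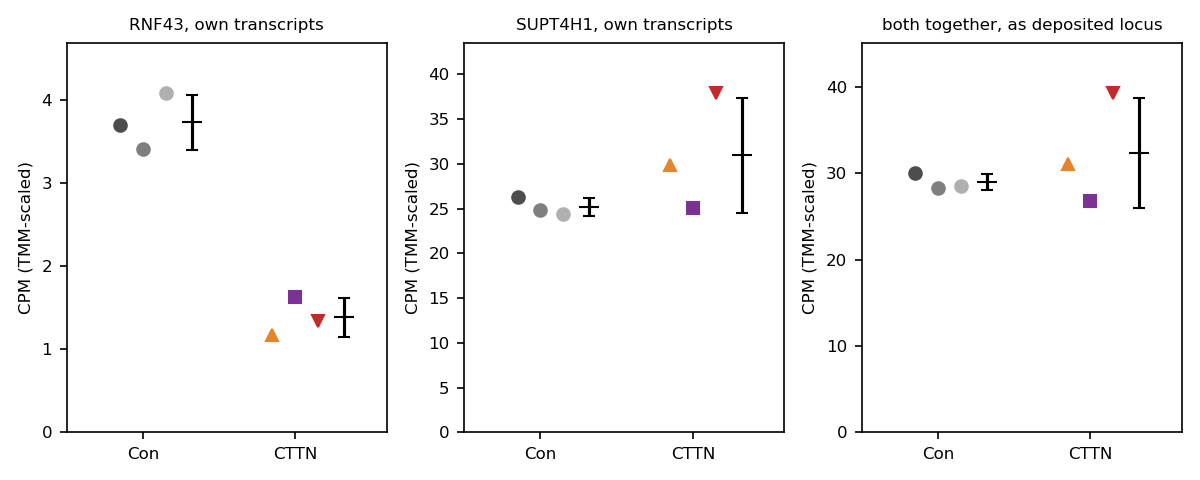
CPM of RNF43 and of SUPT4H1, each from its own transcripts, and of the deposited locus that holds both, in each library (left: Con, circles; right: CTTN, triangles and square), with the mean and SD beside the points (n = 3). RNF43 was lower in all 3 CTTN libraries (mean 1.38 against 3.73 CPM), and the locus was not.

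ZNRF3, the paralog of RNF43, was at 19.7, 26.8 and 16.0 CPM in CTTN cells and at 21.9, 24.2 and 23.6 CPM in controls. CTTN library 2 was the highest of all 6 libraries and CTTN libraries 1 and 3 the lowest, and the log2 fold change was -0.16 ± 0.18 (edgeR adjusted p = 0.544). LGR4, an R-spondin receptor that keeps RNF43 and ZNRF3 in check, differed by -0.12 ± 0.15. LGR5, its stem cell paralog, had 0 counts.

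MYC, a target gene in many tissues and the most abundant member, was at 263, 268 and 265 CPM in CTTN cells and at 275, 259 and 280 CPM in controls. The groups overlapped, with a log2 fold change of -0.03 ± 0.07 (95% interval -0.21 to 0.14, edgeR adjusted p = 0.754). NKD1, a feedback inhibitor that binds Dishevelled, was at 15.0, 22.1 and 10.3 CPM against 20.0, 21.1 and 22.8 CPM. CTTN libraries 1 and 3 were below the controls and CTTN library 2 was among them. The log2 fold change was -0.43 ± 0.25 (edgeR adjusted p = 0.256). NKD2 and SP5 had 0 counts in all 6 libraries, so the feedback and target members with counts were AXIN2, LEF1, MYC, NKD1, RNF43, TCF7 and ZNRF3.

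CTTN library 3 was the lowest of the 6 libraries in 21 of the 34 members (61.8%), where it was lowest in 37.5% of all loci, and the highest in 6 (17.6%, against 37.7% of all loci). Over the 34 members the log2 ratio to the control mean correlated with transcript length at Spearman's rho of -0.59 in CTTN library 1, 0.05 in CTTN library 2 and -0.69 in CTTN library 3, as a description over genes that share the same libraries. The same values over all 14433 loci were -0.52, -0.05 and -0.66.

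**Figure D4:**
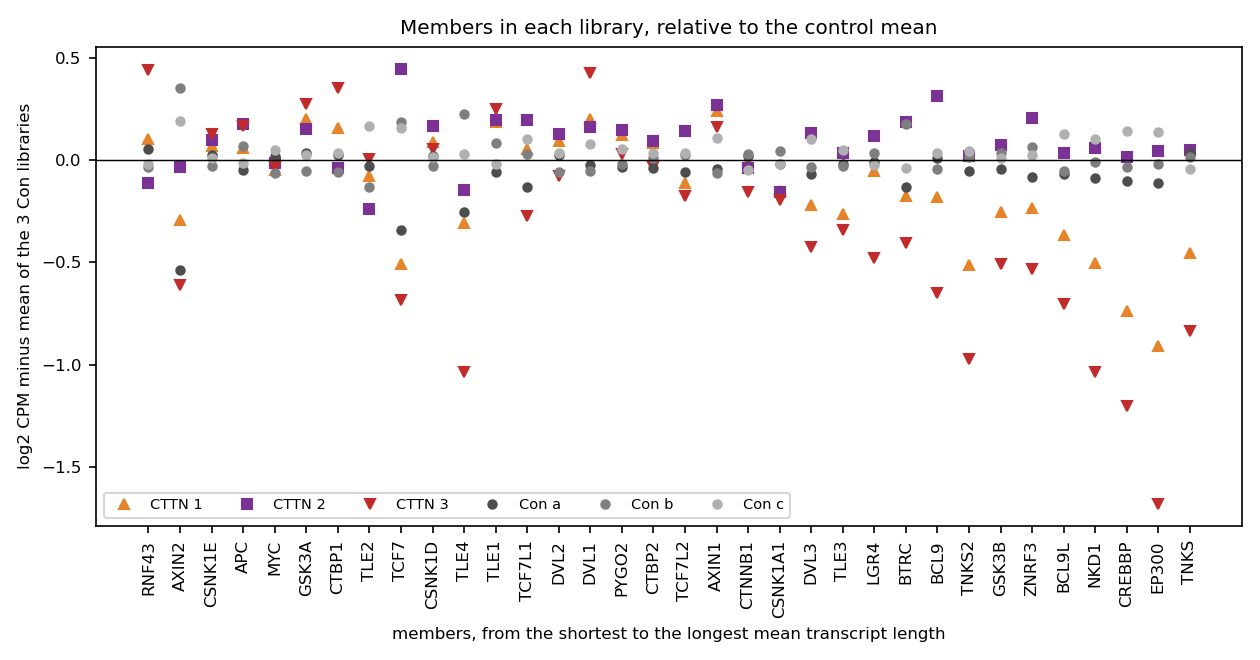
Log2 CPM of each of the 34 members in each library minus the mean of the 3 Con libraries (y axis), with members ordered from the shortest to the longest mean transcript (x axis). CREBBP, EP300 and TNKS, among the long members at the right, lie low in CTTN libraries 1 and 3 and near the controls in CTTN library 2.

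Leaving out CTTN library 2 gave calls for 15 of the 34 members (44.1%), against 47.2% of all loci. Of these, 3 members (DVL1, CTBP1 and the GSK3A locus) were higher, against 23.0% of all loci, and 12 were lower, against 24.2% of all loci. The GSK3A locus also holds ERF, and 49.5% of its control counts came from GSK3A transcripts. The 12 lower members were GSK3B, BCL9, BCL9L, DVL3, TLE3, TLE4, ZNRF3, NKD1, CREBBP, EP300, TNKS and TNKS2. With CTTN library 2 as the sole CTTN library, whose spread was taken to be that of the controls, AXIN1 (0.26, edgeR adjusted p = 0.0176) and BCL9 (0.31, edgeR adjusted p = 0.00454) were called, 2 of 34 members (5.88%) against 14.1% of all loci. With the transcript-length offset, AXIN1 (0.36), DVL1 (0.33), TLE1 (0.25) and the locus that PYGO2 shares with SHC1 (0.20) were called, all higher in CTTN cells, 4 of 34 members (11.8%) against 18.4% of all loci. Of that locus' control counts, 29.2% came from PYGO2 transcripts. AXIN1 was above 0 in all 3 of these settings and was called in the last 2, and its paralog AXIN2 had too few counts to compare.

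**Figure D5:**
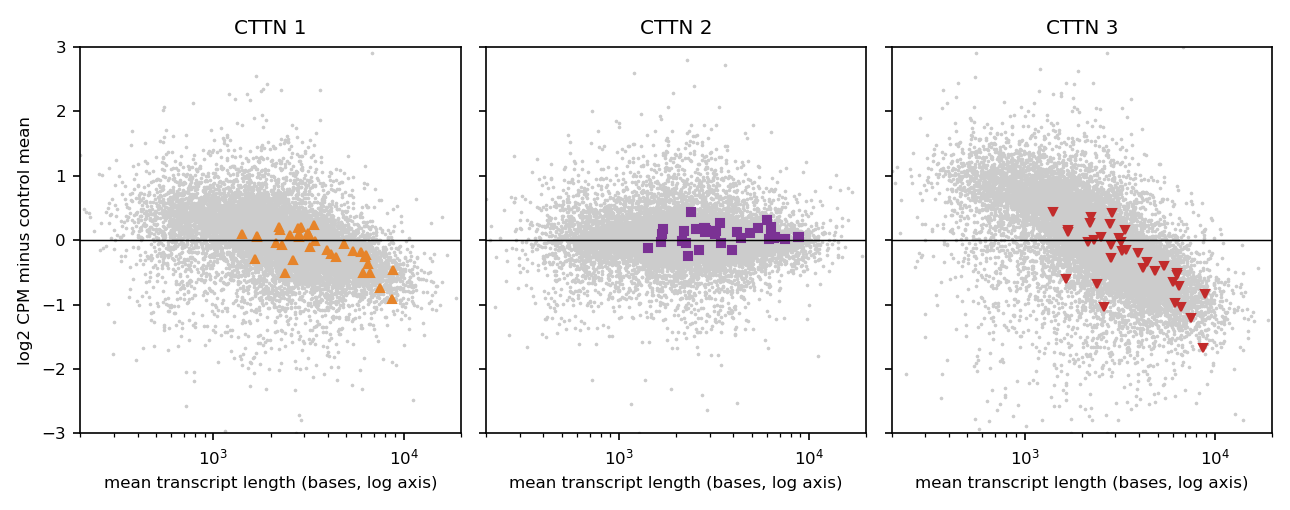
Log2 CPM minus the control mean (y axis) against mean transcript length in bases (x axis, log scale) in CTTN libraries 1, 2 and 3, for all loci tested (grey) and the members (coloured); loci more than 3 log2 units from 0 are not drawn. The members follow the slope of all loci in CTTN libraries 1 and 3. In CTTN library 2 they run from -0.24 (TLE2) to 0.45 (TCF7) with little slope on length (Spearman's rho 0.05).

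The deposited start-site groups, which split each gene's reads by transcription start, gave no edgeR call. Members had 314 groups, of which 119 were tested, and 0 passed at an adjusted p of 0.05 (lowest adjusted p of a member 0.327, and of all groups 0.0724). At an unadjusted p of 0.05 there were 10 of the 119 member groups, against 10.4% of all 35916 groups. DESeq2 called 2 of the 119 member groups, against 1.85% of all groups with an adjusted p. Neither count stood above the share of all groups. The first was the main group of RNF43, with 42.8, 55.4 and 36.7 scaled fragments in CTTN cells and 110, 107 and 145 in controls. The second was a minor group of CSNK1A1, with 0 in all 3 CTTN libraries and 57.7, 102 and 74.2 in controls, which made up 1.86% of the gene's control FPKM.

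For CTNNB1 and MYC the share of the main start overlapped between the groups. The main start of CTNNB1 held 61.7 ± 1.12% of its FPKM in CTTN cells and 60.2 ± 3.05% in controls (SD, n = 3), and that of MYC held 52.7 ± 3.75% and 54.1 ± 1.0%. TCF7L2 was less even: its main start held 23.6, 39.1 and 11.2% of the gene's FPKM in CTTN libraries 1, 2 and 3 and 53.0, 48.5 and 40.8% in controls. Every CTTN library was below the controls, CTTN libraries 1 and 3 by most, and the group's edgeR adjusted p was 0.595. In CTBP2 the leading start held 51.9, 49.4 and 58.3% in CTTN cells and 42.0, 37.3 and 44.0% in controls. The CTTN libraries did not overlap with the controls (edgeR adjusted p = 0.478). Nor did the main starts of DVL3 (62.2, 66.5 and 53.4% against 72.2, 71.8 and 66.7%) and BTRC (93.4, 93.4 and 100% against 80.5, 78.3 and 90.5%). In all, 31 members had 2 or more start groups above 5% of their FPKM. How often such shares do not overlap was not counted, in the members or in all genes.

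Other genes of the pathway, listed by role, changed in places. These lists were chosen with earlier results of these data known. A share above that of all loci, here and below, can therefore come from the choice of genes. Of 23 further target genes tested, 4 passed (17.4%, against 4.20% of all loci): PLAUR, the urokinase receptor, rose, and JUN, SOX9 and CLDN1 fell. SOX9, a transcription factor of progenitor cells, was at 6.35, 7.10 and 6.41 CPM in CTTN cells and at 13.3, 13.0 and 13.0 CPM in controls, a log2 fold change of -0.99 ± 0.09 (edgeR adjusted p = 0.00484). PLAUR had a log2 fold change of 1.08 ± 0.12, JUN, an AP-1 subunit, one of -0.64 ± 0.08, and CLDN1, a tight junction protein, one of -0.94 ± 0.10 (edgeR adjusted p = 0.00845, 0.0116 and 0.0079). L1CAM, a cell adhesion molecule, shares its locus with ARHGAP4, NAA10 and RENBP, and that locus had a log2 fold change of 0.56 (edgeR adjusted p = 0.0678). Its own transcripts had one of 1.42 and were called (edgeR adjusted p = 0.0194).

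Of 26 ligands, receptors and secreted modulators tested, 2 rose and 0 fell (7.69%, against 4.20% of all loci). The ligand WNT6 had a log2 fold change of 2.95 ± 0.54 and KREMEN2, a co-receptor of DKK inhibitors, one of 1.21 ± 0.22 (edgeR adjusted p = 0.0326 and 0.0317). WNT6 was low, at 1.42, 0.871 and 2.63 CPM in CTTN cells and at 0.329, 0.164 and 0.136 CPM in controls. The control values lay near the 0.0727 to 0.086 CPM that a count of 0 allows. Of 40 other intracellular regulators tested, 1 rose (2.50%). Among these 40, here and below, SKP1 and PPP2CA share 1 locus, which was counted for each. The gene that rose was RNF146, the ubiquitin ligase that destroys tankyrase-marked AXIN. It was at 19.0, 18.0 and 17.8 CPM in CTTN cells and at 14.1, 11.9 and 11.5 CPM in controls. All 3 CTTN libraries of RNF146 were above the controls, by 0.55 ± 0.11 on the log2 scale (edgeR adjusted p = 0.0382). The 7 genes called at their loci kept their direction with CTTN library 2 alone, with log2 fold changes from -0.94 (CLDN1) to 2.04 (WNT6). All 7 missed the threshold without CTTN library 1 or without any 1 control library. Their edgeR adjusted p ran from 0.0536 for SOX9 without Con library a to 0.204 for RNF146 without Con library b. Calls over all loci also fell far below their full number without Con library b, so a miss there is not particular to these genes.

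The ligand and receptor list was also read in the settings used for the members, which share their control libraries. Without CTTN library 2, 11 of its 26 genes were called, 5 higher and 6 lower (42.3%, against 47.2% of all loci). With CTTN library 2 alone, 11 were also called, 5 higher and 6 lower (42.3%, against 14.1% of all loci). The ligand WNT5A was at 63.4, 72.3 and 53.9 CPM in CTTN libraries 1, 2 and 3 and at 91.2, 91.7 and 88.0 CPM in controls. The groups did not overlap, but WNT5A missed the threshold with all libraries (-0.51 ± 0.12, edgeR adjusted p = 0.0562). Its log2 fold change was -0.63 without CTTN library 2 (edgeR adjusted p = 0.00218) and -0.32 with CTTN library 2 alone (edgeR adjusted p = 0.00169). The ligand WNT9A and the receptors FZD4 and FZD6 also had lower values in all 3 CTTN libraries, with log2 fold changes of -0.47, -0.62 and -0.53 over all libraries (edgeR adjusted p = 0.0608, 0.0729 and 0.107). With CTTN library 2 alone these were -0.30, -0.31 and -0.25 (edgeR adjusted p = 0.00988, 0.0461 and 0.0421). The receptor FZD9 was higher by 0.79 over all libraries (edgeR adjusted p = 0.092) and by 0.74 with CTTN library 2 alone (edgeR adjusted p = 0.0253). DKK1, a secreted inhibitor of the LRP co-receptors, was low, at 0.954, 0.708 and 1.01 CPM in CTTN cells and at 1.10, 1.75 and 1.71 CPM in controls. Its log2 fold change was -0.77 over all libraries (edgeR adjusted p = 0.117) and -1.10 with CTTN library 2 alone. These 6 genes were chosen after their values were seen, and most of them fell. FZD2 and PORCN were higher in all 3 CTTN libraries, with log2 fold changes of 0.49 and 0.31 over all libraries (edgeR adjusted p = 0.0744 and 0.09). With CTTN library 2 alone, WLS was higher by 0.33 and KREMEN1 by 0.31. Of all loci, 19.4% were lower and 19.3% higher in every CTTN library than in every control library.

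Of the 23 target genes, 14 were called without CTTN library 2 (60.9%, against 47.2% of all loci), 8 higher and 6 lower, and 6 with CTTN library 2 alone (26.1%, against 14.1% of all loci), 3 higher and 3 lower. Of the 40 other intracellular regulators, 23 were called without CTTN library 2 (57.5%, against 47.2% of all loci), 10 higher and 13 lower, and 4 with CTTN library 2 alone (10%, below the 14.1% of all loci), 3 higher and 1 lower.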

How the data were processed

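RNA-seq of 3 Con and 3 CTTN libraries was used. The labels and methods name a stranded poly(A) kit, bcl2fastq (2.20.0), Trimmomatic or Cutadapt, STAR and Cufflinks; the labels give GRCh38, at which the loci lie. The authors deposited estimated counts and FPKM per gene locus, start-site group and transcript, scaled between libraries. Undoing the scale gave whole fragments for 100% of gene values (tolerance 0.01). Control columns could not be tied to replicate numbers and are unnumbered.

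Deposited counts were rounded and tested with edgeR (4.0.16; TMM, filterByExpr, glmQLFTest, two-sided, Benjamini-Hochberg over the whole table) in R 4.3.3, after tests on simulated data. limma (3.58.1) on log2(FPKM + 1) and DESeq2 (1.42.0) were alternatives. FPKM below a mean of 0.5 was left out in the filtered limma fits. CPM were TMM-scaled. Levels between genes were compared on FPKM summed over a gene's own transcripts. Where a locus holds several genes (10 members), transcripts were also summed by name, and an offset from a lowess curve (span 0.3) on transcript length was tried; both were added after seeing the data. Members and lists were chosen with earlier results of these data known. Members with an adjusted p under 0.05, CTNNB1, GSK3B, MYC, AXIN2 and the TCF/LEF factors were to be given in full, and up to 4 called genes a direction of other lists; other members given by library were chosen after their values were seen. Shares are of FPKM. Promoters came from RefSeq. Coding-sequence tables were not used, and protein sequences were not analysed here. One of the marker genes is not reported here.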

Additional observations from a re-analysis of the deposited data

How the results depend on the processing

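The count of members called at the deposited loci was 0 in every planned setting except without CTTN library 2, and across the libraries left out 1 at a time it ranged from 0 to 15. It was 2 with CTTN libraries 1 and 3 left out together, 4 with the transcript-length offset and 1 with own transcripts, all settings chosen after seeing the data. Over all loci, 606 calls became 1900 with DESeq2, 120 with limma on log2(FPKM + 1), 144 with log2(FPKM + 0.1), 13 with log2(FPKM + 1) without the filter, 2128 with CTTN libraries 1 and 3 left out together and 2658 with the transcript-length offset, and ranged from 15 to 6953 with 1 library left out; the lowest was without Con library b and the highest without CTTN library 2. Scaling by RLE or by library total, no count filter, counts multiplied back, own transcripts and the 1.5-fold minimum gave 462 to 643. The 0 start-site calls became 766 with DESeq2 and 4 with CTTN libraries 1 and 3 left out together. The CTTN log2 fold change of 1.35 was 1.23 with limma on log2(FPKM + 0.1) and 1.22 on log2(FPKM + 1), with and without the filter (adjusted p = 0.0607, 0.0631 and 0.135), and 1.10 to 1.57 with 1 library left out. The 7 other called pathway genes kept their direction in every setting. No paired analysis was possible because the control columns carry no replicate numbers. Unless a value or the construction of a setting shows it, the cause was not tested.

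Of the members' log2 fold changes, none of which was called except RNF43 in its own transcripts, these changed sign. With CTTN libraries 1 and 3 left out together they were 0.073 (GSK3B), 0.44 (TCF7), 0.14 (TCF7L2), 0.31 (BCL9), 0.031 (BCL9L), 0.18 (BTRC), 0.13 (DVL3), 0.032 (TLE3), 0.12 (LGR4), -0.12 (RNF43 locus), 0.20 (ZNRF3), 0.054 (NKD1), -0.039 (CTBP1), 0.011 (CREBBP), 0.039 (EP300), 0.048 (TNKS), 0.019 (TNKS2) and 0.18 (APC, own transcripts). With the transcript-length offset they were 0.072 (CTNNB1), 0.15 (GSK3B), -0.023 (APC locus), 0.067 (TCF7L2), 0.19 (BCL9), 0.040 (BCL9L), 0.18 (BTRC), 0.039 (CSNK1A1), -0.063 (CSNK1E), 0.053 (DVL3), 0.052 (TLE3), 0.14 (LGR4), -0.082 (RNF43 locus), 0.19 (ZNRF3), 0.075 (TNKS) and 0.035 (APC, own transcripts). With limma on log2(FPKM + 0.1) and on log2(FPKM + 1), the latter with and without the filter, they were 0.16 and 0.15 (TCF7L2), -0.0055 and -0.0052 (DVL2), 0.034 (TLE2), 0.031 and 0.030 (TLE3), 0.27 and 0.24 (TLE4), 0.0049 (MYC) and -0.11 and -0.10 (CTBP2), and without the filter also 0.024 (AXIN2) and 0.080 (TCF7). TCF7L1 was -0.0086 with DESeq2, -0.0006 with RLE, -0.037 with the library total and -0.0068 without the count filter. With 1 library left out, the ranges that crossed 0 were -0.65 to 0.028 (TCF7), -0.11 to 0.12 (TCF7L1), -0.15 to 0.019 (TCF7L2), -0.41 to 0.085 (BCL9), -0.30 to 0.0094 (BTRC), -0.26 to 0.035 (LGR4) and -0.0031 to 0.27 (RNF43 locus). RNF43 in its own transcripts kept its direction in every setting, from -0.46 with limma on log2(FPKM + 1) without the filter (adjusted p = 0.0821) to -1.57 without CTTN library 2; it was under the FPKM filter of the other limma fits. LEF1 and AXIN2's own transcripts had too few counts to be tested.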
